A study of Mus musculus with 20 samples.

Results

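Krt19, Krt7, Sox9, Muc1, Cftr, Spp1, Car2, Onecut1 and Tff2 are 9 genes used as markers of the duct cell of the pancreas, and their transcript levels were examined here in mouse islet preparations. The 9 rows were found by matching Ensembl identifiers to these symbols among the 26211 genes of the deposited table. The study compared islets of mice lacking the P2Y14 receptor (P2ry14, a G protein-coupled receptor for UDP-sugars), 10 libraries labelled P2Y14-knockout, with 10 libraries labelled wild-type. All 20 came from the mixed strain C57BL/6 x 129S6. Islets were released by injecting Liberase into the duct, picked by hand and cultured overnight before RNA was taken, in both genotypes. The labels give no age, do not say which part of P2ry14 was deleted, and do not state that each library came from a separate animal. P-values therefore measure the spread between these libraries, which may be partly technical. Values are read counts divided by a size factor of the library, called normalized read counts below.

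Pancreatic ducts carry the enzymes made by acinar cells to the gut and add a bicarbonate-rich fluid to them. Duct cells are epithelial cells held together by simple-epithelium keratins, and their fluid secretion depends on the chloride and bicarbonate channel CFTR and on carbonic anhydrases. The transcription factors SOX9 and ONECUT1 (HNF6) act in the embryonic duct and progenitor epithelium. An islet preparation can hold pieces of duct and acinar tissue, and several of the 9 genes are also transcribed in other cells. In such bulk samples, fewer cells of a type and less RNA per cell cannot be told apart.

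The 9 markers did not vary as 1 group. None was called as different between the genotypes. Muc1 and Tff2 rose with the acinar share of the library. Spp1 rose with Krt19, and Cftr, Sox9 and Onecut1 also rose with it but lost that call when single libraries were left out. Of 15 mesenchymal and stellate genes, 14 rose with Krt19 too, beside 4.98% of all genes called positive. With their summed level as a covariate, 0 of 17481 genes were called on Krt19, and so none of the markers, Spp1 included. Krt19 and that level were themselves closely correlated, which widens the error of slopes in that fit. The slopes did not go to 0 in that fit: Spp1 was at 0.43 against 0.60 without the covariate, and Sox9 at 0.44 against 0.37. Krt7 was high, varied least and followed none of the other 8.

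Promoter sequences are shown for Muc1, Spp1 and Krt7 because these 3 genes stand for the 3 patterns. RefSeq promoter windows (build GRCm38.p6) were found for 5 of the 9 markers, namely Muc1, Spp1, Cftr, Onecut1 and Krt7. Spp1 had 2 windows; the upstream one is shown, and the other, chr5:104435942-104436191, held none of the motifs searched. Each sequence below is the 250 bases before a transcript start, on the plus strand, 5′ to 3′. Capitals mark matches, on either strand, to the E-box CACCTG, the HNF1 half-site GTTAAT, the ONECUT core ATCAAT or the TATA box TATAAA.
Muc1, chr3:89228806-89229055: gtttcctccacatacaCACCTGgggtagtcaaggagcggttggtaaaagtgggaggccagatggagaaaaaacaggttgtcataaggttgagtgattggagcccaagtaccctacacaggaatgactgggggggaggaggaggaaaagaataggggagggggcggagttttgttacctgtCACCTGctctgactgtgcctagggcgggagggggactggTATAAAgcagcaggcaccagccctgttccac
Spp1, chr5:104434861-104435110: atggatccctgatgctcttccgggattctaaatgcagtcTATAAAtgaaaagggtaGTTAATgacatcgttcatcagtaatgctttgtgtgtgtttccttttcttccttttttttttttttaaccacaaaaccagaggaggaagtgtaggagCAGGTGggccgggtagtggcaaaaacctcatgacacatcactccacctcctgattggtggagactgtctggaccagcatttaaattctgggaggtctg
Krt7, chr15:101412153-101412402: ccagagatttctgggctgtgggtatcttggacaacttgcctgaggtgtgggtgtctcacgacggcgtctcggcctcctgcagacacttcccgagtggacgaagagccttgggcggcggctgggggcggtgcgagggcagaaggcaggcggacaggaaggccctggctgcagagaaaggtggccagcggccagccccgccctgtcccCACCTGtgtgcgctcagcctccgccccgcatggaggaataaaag

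The Muc1 window held E-box letters at -234 to -229 and at -70 to -65 from the start, and TATA box letters at -31 to -26. The Spp1 window held TATA box letters at -211 to -206, the HNF1 half-site at -194 to -189 and the E-box on the minus strand at -98 to -93. The Krt7 window held 1 match, an E-box at -44 to -39. Such letters are common. Of 32526 windows of this length, 17.3% held the E-box, 6.47% the HNF1 half-site, 6.60% the ONECUT core and 12.3% the TATA box. A match is a description of the sequence and not a binding site, and the 3 windows had no ONECUT core in them.

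The libraries held 34520628 to 199847246 reads over genes. Acinar genes (37 of 40 listed were in the table, among them the trypsins, elastases and lipases) took 9.27% to 36.8% of the knockout libraries and 7.12% to 36.2% of the wild-type libraries. The means, 25.1% ± 10.1 (SD, n = 10) and 23.6% ± 9.69 (SD, n = 10), did not differ beyond this spread (two-sided permutation test, p = 0.731). Endocrine genes, the defining markers of the labelled tissue, took 14.2% to 46.5%. The summed level of 15 mesenchymal and stellate genes (collagens and the like) ranged from 8988 to 65365 normalized read counts in knockout and from 4215 to 67230 in wild-type libraries (permutation p = 0.954). P2ry14 itself was at 51.2 ± 31.4 normalized read counts in knockout (0 to 114) and 151 ± 67.4 in wild-type libraries (79.7 to 262; SD, n = 10 each), so the groups overlapped, although the wild-type minimum exceeded 8 of the 10 knockout values. Its fitted log2 difference was -1.97 (SE 0.59), with a limma unadjusted p of 0.00291 and an adjusted p of 0.244 over all genes.

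The markers lay on very different levels. Per kilobase of the longest coding transcript, the mean over 20 libraries was 32979 normalized read counts for Tff2, 10793 for Spp1, 2219 for Krt7, 779 for Muc1 and 690 for Krt19. It was 45.2 for Sox9, 26.3 for Cftr, 17.2 for Car2 and 9.84 for Onecut1. The order was the same with the union of exons as the length. Of the neighbours in this order, Spp1 and Krt7, and Krt7 and Muc1, had ranges of mean ± SD that did not meet, and those of the other neighbours overlapped.

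**Figure D1:**
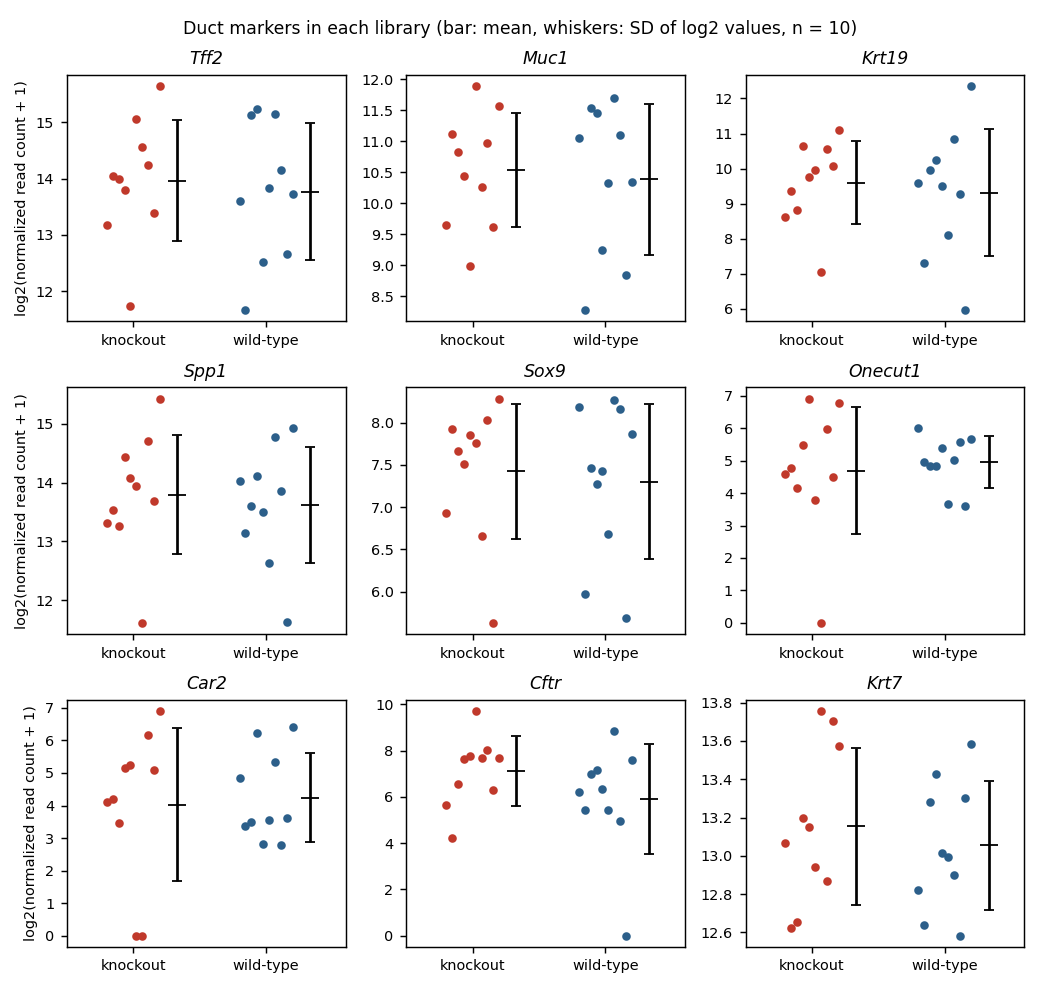
The 9 duct markers in 20 islet libraries by genotype, as log2(normalized read count + 1). Each dot is a library, the bar is the mean and the whiskers are the SD (n = 10 per genotype); in every panel the knockout and wild-type dots overlap.

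The keratins mark the cytoskeleton of the duct epithelium. Krt19, the keratin most used to identify duct cells, had the widest range of the markers detected in every library. It lay between 132 and 2207 normalized read counts in knockout libraries (median 931) and between 61.6 and 5270 in wild-type libraries (median 742). The highest of the 20 libraries was 85.6 times the lowest, and the wild-type range enclosed the knockout range. Krt7, its partner in simple epithelia, lay between 6314 and 13812 in knockout (median 8840) and between 6138 and 12273 in wild-type libraries (median 8215). Its highest value was 2.25 times its lowest, so the keratin pair differed widely in how much they varied.

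The transcription factors were low. Sox9, which maintains the duct and progenitor state, lay between 48.6 and 310 in knockout (median 209) and between 50.4 and 307 in wild-type libraries (median 174). Onecut1 lay between 0 and 120 in knockout (median 24.7) and between 11.2 and 63.7 in wild-type libraries (median 30.9). The 0 was knockout replicate 7, in which a count of 0 allows up to 6.11 normalized read counts; this limit and the others below cover counting error only.

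Cftr and Car2 serve fluid and bicarbonate secretion. Cftr lay between 17.5 and 825 in knockout (median 199) and between 0 and 453 in wild-type libraries (median 76.6). The 0 was wild-type library 19, where up to 2.80 is allowed, and 1 library of each genotype stood far above the rest. Car2, carbonic anhydrase 2, lay between 0 and 118 in knockout (median 25.2) and between 5.95 and 84.2 in wild-type libraries (median 11.01). Knockout replicates 6 and 7 were at 0 for Car2, which allows up to 7.71 and 6.11.

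The secreted and surface proteins included the 2 most abundant markers, Tff2 and Spp1. Muc1, a membrane mucin of the apical surface, lay between 508 and 3807 in knockout (median 1602) and between 310 and 3302 in wild-type libraries (median 1709). Tff2, a trefoil peptide secreted with mucus, lay between 3422 and 51317 in knockout (median 16552) and between 3257 and 38754 in wild-type libraries (median 14058). Spp1, the secreted phosphoprotein osteopontin, lay between 3143 and 44196 in knockout (median 14444) and between 3151 and 31145 in wild-type libraries (median 13646). For all 3 genes the ranges of the genotypes overlapped.

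None of the 9 markers was called as different by genotype. On log2(value + 1), limma's Benjamini-Hochberg adjusted p (knockout minus wild-type, 17482 genes) was 0.683 or more for each. A limma unadjusted p under 0.05 was reached by 0 of 9, beside 1563 of the 17482 genes. Over all genes tested, 0.280% were called by limma. On the recovered reads, edgeR and DESeq2 also called 0 of 9, with 0 at an unadjusted p under 0.05. Over all genes they called 43 and 137, with 1542 and 1713 at an unadjusted p under 0.05. The estimate was largest for Cftr, 1.22 (SE 0.82, adjusted p = 0.683), with a 95% interval from -0.47 to 2.91. Without wild-type library 19 it was 0.57, and without wild-type library 17 it was 1.55. The interval was narrowest for Krt7, 0.10 (SE 0.16) with limits of -0.23 and 0.43, and wider for Spp1 (-0.68 to 1.03), Muc1 (-0.77 to 1.06), Tff2 (-0.78 to 1.17) and Sox9 (-0.62 to 0.87). For Krt19 (-1.02 to 1.59), Onecut1 (-1.57 to 1.05) and Car2 (-1.88 to 1.45) a change of 2-fold in either direction lies inside the interval. A 2-fold rise also lies inside the intervals of Cftr, Spp1, Muc1 and Tff2, so only for Krt7 and Sox9 did the interval leave out such a change both ways. The median of the 9 estimates was 0.15 beside -0.002 over all genes. For 0 of 9 did the genotypes fail to overlap, beside 0.0343% of all genes.

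Direction was not fixed for several of these estimates. Krt19 was 0.29 with limma but -0.26 with edgeR and -0.27 with DESeq2. Car2 was -0.22 with limma and 0.29 with edgeR, and Onecut1 was -0.26 with limma and 0.34 with edgeR.

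Other genes of duct biology were read from 5 lists: epithelial structure, fluid and bicarbonate transport, transcription with Notch and Hippo signalling, cilia and polycystins, and mucins and secreted proteins. Of 55 in the table, 51 were tested, and 0 of 51 were called by genotype. The smallest p-values were those of Slc4a4, the sodium bicarbonate cotransporter, at -0.73 (SE 0.24, adjusted p = 0.318), Cdh1, E-cadherin, at -0.27 (SE 0.11, adjusted p = 0.445) and Notch1 at -0.34 (SE 0.15, adjusted p = 0.518). Those 3 of 51 were also the ones with a limma unadjusted p under 0.05, beside 1563 of all 17482 genes. Next in their lists came Sctr, the secretin receptor, at 1.53 (adjusted p = 0.617), Jag1 at -0.40 (0.687), Cys1 at -0.54 (0.642), Muc20 at -0.41 (0.732) and Mmp7 at 1.22 (0.810). The list medians lay between -0.12 and 0.08.

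Muc1 and Car2 share chromosome 3 with P2ry14. In the order of the 833 tested genes of that chromosome, P2ry14 was number 174, Car2 number 28 and Muc1 number 329. Thbs3, number 328 and next to Muc1, was at 471 ± 290 normalized read counts in knockout and 1416 ± 199 in wild-type libraries (SD, n = 10 each), a log2 difference of -1.75 (SE 0.22, limma adjusted p = 3.53e-04). Its ranges were 172 to 1234 in knockout and 1140 to 1745 in wild-type libraries, so the groups overlapped. Only knockout replicate 6 lay in the wild-type range, and the next knockout value was 617, in replicate 1. Thbs3 was the 1 called gene among 12 tested neighbours of Muc1, beside 0.280% of all genes tested. Muc1 itself was at 0.15 (SE 0.44, adjusted p = 0.945). Trim46 on its other side was at 0.62 (SE 0.15, adjusted p = 0.110), and Car13, a neighbour of Car2, was not called.

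**Figure D2:**
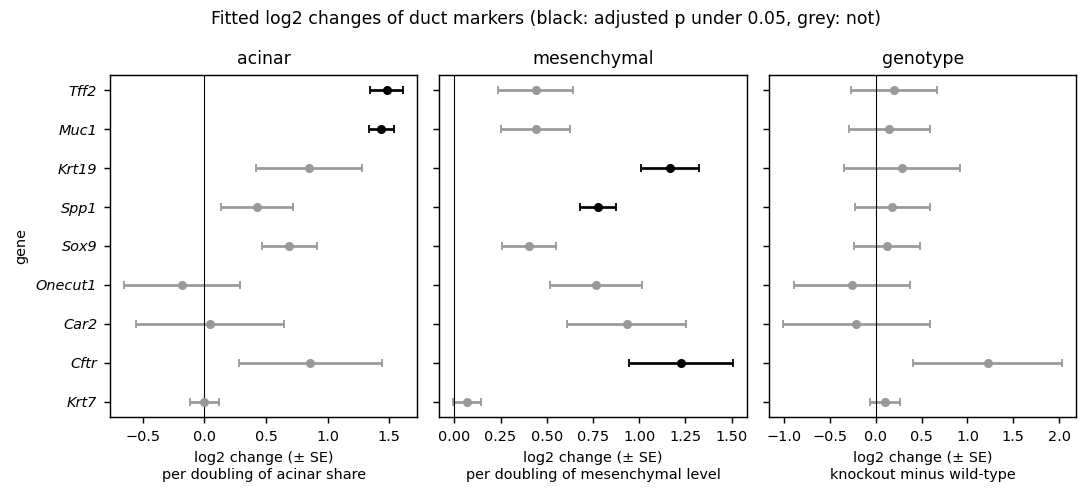
Fitted log2 change ± SE of each duct marker for 3 limma fits over 20 libraries: per doubling of the acinar share, per doubling of the summed mesenchymal and stellate level, and knockout minus wild-type. Black points passed an adjusted p under 0.05: Muc1 and Tff2 on the acinar share, Krt19, Spp1 and Cftr on the mesenchymal level, and none on genotype.

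Muc1 and Tff2 rose with the acinar share. In the knockout library of lowest acinar share, replicate 5, Tff2 was at 3422 and Muc1 at 508; in wild-type library 12, lowest of all, they were at 3257 and 310. These were the lowest values of both genes in both genotypes. Per doubling of the acinar share, with genotype as a covariate, log2 Muc1 rose by 1.44 (SE 0.10, limma adjusted p = 1.61e-09) and log2 Tff2 by 1.48 (SE 0.14, adjusted p = 1.49e-07). The share is a percentage of a library's values, whereas the markers are normalized read counts; per doubling of the summed acinar values, in the markers' own unit, the slopes were 0.92 for Muc1 (adjusted p = 3.71e-09) and 0.99 for Tff2 (1.85e-10). With edgeR the slopes were 1.42 (adjusted p = 4.93e-09) and 1.50 (3.22e-07). These were 2 of 9 markers called, beside 4.43% of 17445 genes; the median slope was 0.69 over the markers and -0.02 over all genes. Leaving out each library in turn gave 1.38 to 1.50 for Muc1 and 1.42 to 1.55 for Tff2.

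The other 7 were not called on the acinar share. Sox9 had a slope of 0.69 (SE 0.22, adjusted p = 0.0884) and was called without knockout replicate 5 (0.95, adjusted p = 0.0203). Krt19 was at 0.85 (SE 0.43, adjusted p = 0.278), Cftr at 0.86 (SE 0.58, 0.417) and Spp1 at 0.42 (SE 0.29, 0.428). For Krt7 the slope had a 95% interval from -0.25 to 0.25, while those of Car2 (-1.20 to 1.29) and Onecut1 (-1.16 to 0.79) were wide. Whether slopes differed between genotypes was tested by an interaction: 0 of 17445 genes passed with limma (303 at an unadjusted p under 0.05) or edgeR (264), and 0 of 9 markers had an unadjusted p under 0.05.

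Across the 20 libraries, log2 Muc1 and log2 acinar share had Pearson's r of 0.958 and Spearman's rho of 0.952 (permutation p = 2e-05 each, the smallest that 100000 resamples can give; adjusted over 75 relations, 1.87e-04 and 1.67e-04). Within knockout libraries r was 0.951 and within wild-type libraries 0.970. Tff2 had r of 0.925 and rho of 0.884 (permutation p = 2e-05 each, adjusted 1.87e-04 and 1.67e-04), with 0.902 in knockout and 0.944 in wild-type libraries. Without the 2 libraries farthest from the median share, knockout replicate 5 and wild-type library 12, r was 0.945 for Muc1 and 0.869 for Tff2. Sox9 had r of 0.577 and rho of 0.568 (permutation p = 0.0138 and 0.0110, adjusted 0.0470 and 0.0347). Within genotypes its r was 0.414 in knockout (permutation p = 0.263) and 0.704 in wild-type libraries (p = 0.0390), and 0.648 without the 2 libraries. For Krt19, r was 0.401 and rho 0.402 (permutation p = 0.0877 and 0.0810, adjusted 0.178 and 0.165). Endocrine and acinar shares, which are parts of the same total, had r of -0.822. Depth and acinar share had r of 0.137 (permutation p = 0.556), and depth had r of -0.441 to 0.148 with the markers, none at p under 0.05.

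**Figure D3:**
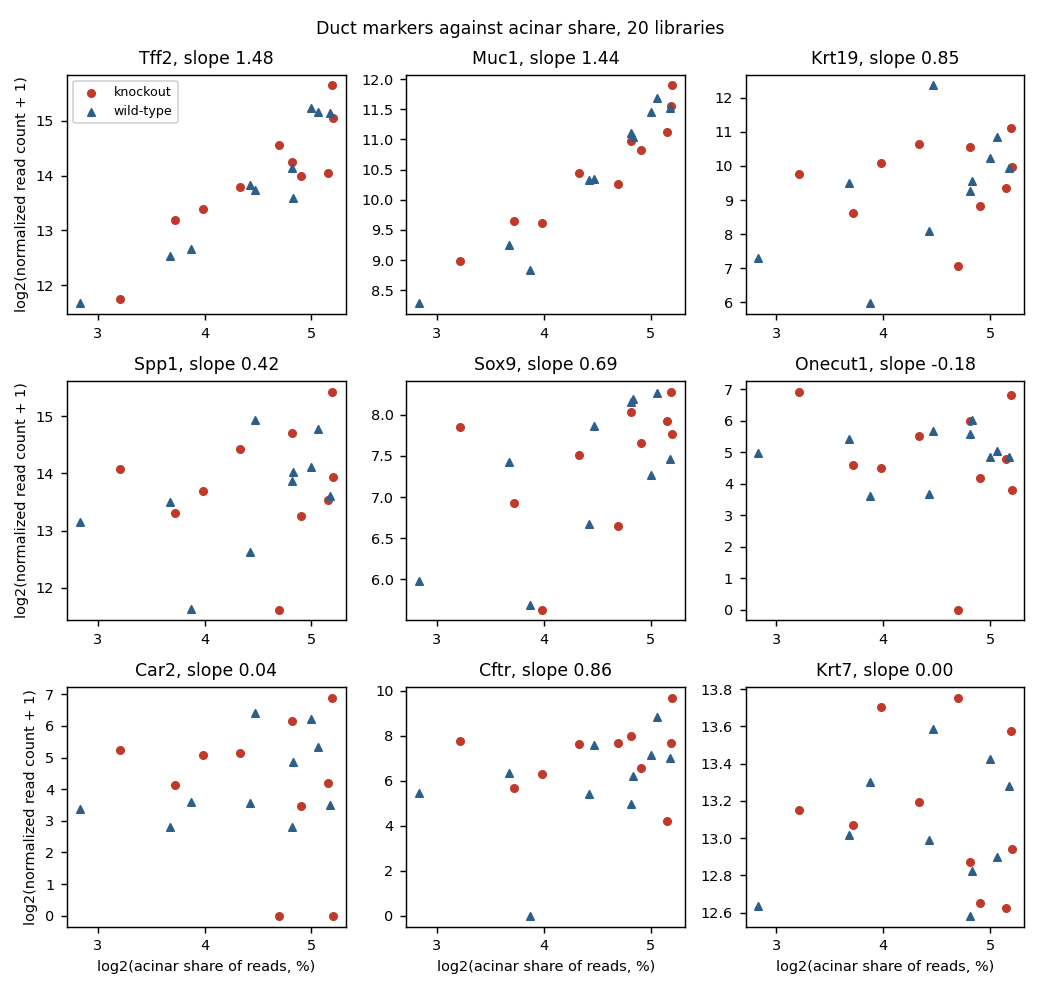
log2(normalized read count + 1) of each marker against log2 of the acinar share of reads (%), with knockout libraries as red circles and wild-type libraries as blue triangles; the titles give the limma slope. Tff2 (1.48) and Muc1 (1.44) climb in both genotypes, and Krt7 is flat.

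With Tff2 in place of the share, 37 of 37 acinar genes were called positive (median slope 0.97, beside 10.0% of all genes called positive), and Muc1 had a slope of 0.87 (SE 0.08, adjusted p = 1.59e-07). The acinar share is made up of these 37 genes, so their count restates the Tff2 slope on the share and is no separate support. Of the 51 other duct genes tested, 5 were called on the acinar share, beside 4.43% of all genes. Krt18 (0.62, adjusted p = 3.58e-04) and Krt23 (1.63, 0.00256), both keratins, Cldn3, a tight junction protein (0.64, 0.0124), and Clu, the secreted chaperone clusterin (0.86, 2.39e-04), rose. Pkd2, polycystin 2 of the primary cilium, fell by 0.29 (adjusted p = 0.0235). Not called were the chloride channel Ano1 (0.60, 0.0637), the anion exchanger Slc26a6 (0.56, 0.121), Sctr (1.29, 0.206), Yap1 of the Hippo pathway (0.56, 0.0932) and Onecut2 (-0.88, 0.223).

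Krt19 and Spp1 rose and fell together. Both were lowest in knockout replicate 7 (Krt19 132, Spp1 3143) and wild-type library 19 (61.6 and 3151). Both were highest in knockout replicate 10 (2207 and 44196) and wild-type library 20 (5270 and 31145) of their genotype. Their log2 values had r of 0.926 and rho of 0.944 (permutation p = 2e-05 each, adjusted 1.87e-04 and 1.67e-04), 0.964 in knockout and 0.939 in wild-type libraries, and 0.908 without wild-type libraries 19 and 20.

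Fits on the level of Krt19 were added after the data were seen. Per doubling of Krt19, log2 Spp1 rose by 0.60 (SE 0.06, limma adjusted p = 3.62e-06), Cftr by 0.87 (SE 0.21, 0.0162), Sox9 by 0.37 (SE 0.10, 0.0241) and Onecut1 by 0.61 (SE 0.17, 0.0399). These were 4 of 8, beside 5.94% of 17481 genes. Car2 was at 0.74 (SE 0.23, 0.0563), Muc1 at 0.37 (0.0944), Tff2 at 0.32 (0.222) and Krt7 at 0.04 (0.718). The Spp1 slope stayed between 0.55 and 0.66, and called, when each library was left out. Leaving out knockout replicate 10, or wild-type library 19, brought the count to 2. Sox9 lost its call without knockout replicate 10 (adjusted p = 0.0514), wild-type library 12 (0.0561) or wild-type library 19 (0.134), and Cftr without wild-type library 19 (0.205). Onecut1 lost it in 7 of the 20 fits, with adjusted p up to 0.118. Calls were also gained: Muc1 without wild-type library 20 (0.50, adjusted p = 0.0424), and Car2 without knockout replicate 6 (0.78, 0.00795), without wild-type library 19 (0.97, 0.0437) or with a pseudocount of 10 (0.49, 0.0167).

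**Figure D4:**
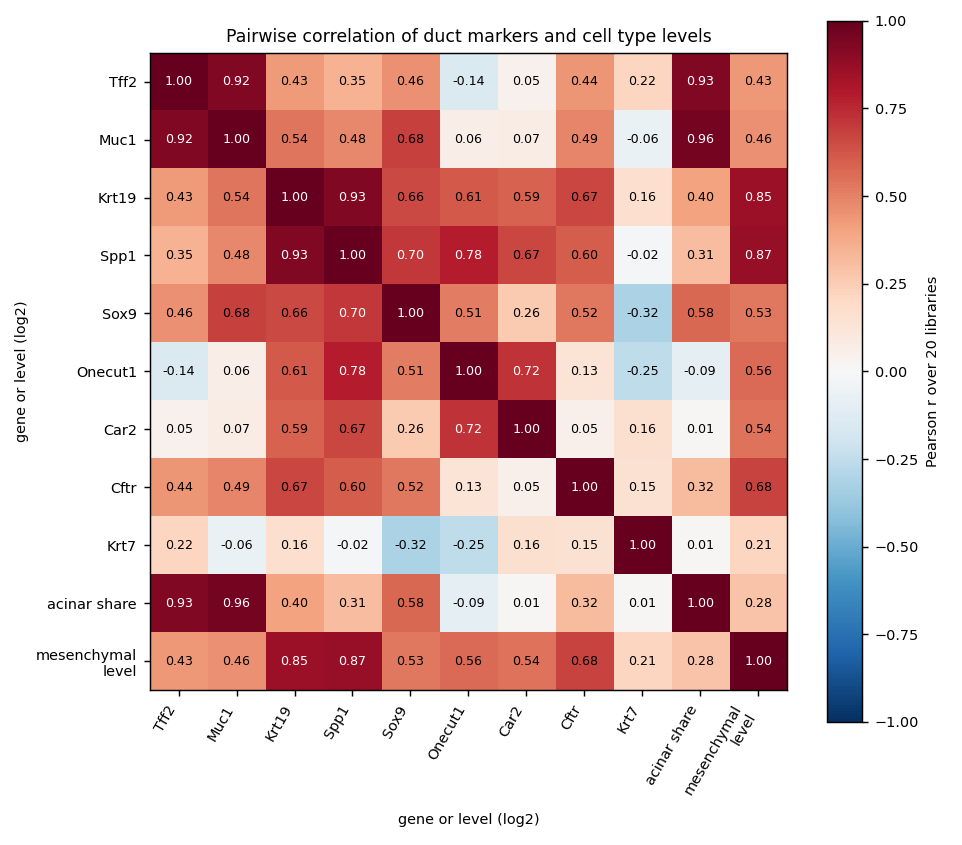
Pearson's r over 20 libraries between the log2 levels of the 9 duct markers, the log2 acinar share and the log2 mesenchymal and stellate level. Muc1 and Tff2 (0.924) form a block with the acinar share, and Krt19 and Spp1 (0.926) have the highest r with the mesenchymal level. With that level 7 of 9 markers have a permutation p under 0.05. In the limma fit on it, 4581 of 17467 genes had an unadjusted p under 0.05. The Krt7 row is pale.

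Of 36 marker pairs, 18 had a permutation p under 0.05. Such p-values were common over all genes. In limma fits on single markers, 2087 (on Onecut1) to 5821 (on Tff2) of 17481 genes had an unadjusted p under 0.05. Muc1 and Tff2 had r of 0.924 and rho of 0.881 (permutation p = 2e-05 each), and 0.898 without wild-type libraries 12 and 19. Spp1 and Onecut1 had r of 0.783 and rho of 0.761 (permutation p = 6e-05 and 2.2e-04, adjusted 4.5e-04 and 0.00150), and 0.669 without knockout replicate 7 and wild-type library 19. Car2 and Onecut1 had r of 0.722 and rho of 0.575 (permutation p = 6.2e-04 and 0.00940, adjusted 0.00423 and 0.0320), but 0.843 in knockout and 0.241 in wild-type libraries (permutation p = 0.520), and 0.524 without knockout replicates 6 and 7. Krt7 had r between -0.317 and 0.215 with the other 8 (lowest permutation p = 0.177). On the level of Krt7, 0 of 8 markers were called, beside 0.149% of all genes.

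Of the 51 other duct genes, 16 were called on Krt19, all positive, beside 4.98% of all genes called positive. Fluid transport was represented by the water channels Aqp1 (1.07, adjusted p = 3.3e-04) and Aqp5 (1.28, 0.0322), the potassium channel Kcnn4 (0.53, 0.00186), Ano1 (0.33, 0.00850) and Car4 (0.27, 0.0325). Of the epithelial structure list, Krt8 (0.25, 0.00308), Krt18 (0.22, 0.0363), Cldn3 (0.29, 0.0143) and Tspan8 (0.39, 0.00487) rose. The Notch ligand Jag1 (0.32, 0.00292), its target Hes1 (0.26, 0.00885) and Wwtr1 of the Hippo pathway (0.29, 0.00912) rose, as did Ccn1 (0.43, 0.00538) and Ccn2 (0.35, 0.0485), which YAP and TAZ are known to induce. The secreted proteins Mmp7 (1.76, 1.07e-04) and Lcn2 (1.26, 2.69e-04) had the steepest slopes of the secreted list. In the cilia and polycystin list 0 of 7 were called.

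**Figure D5:**
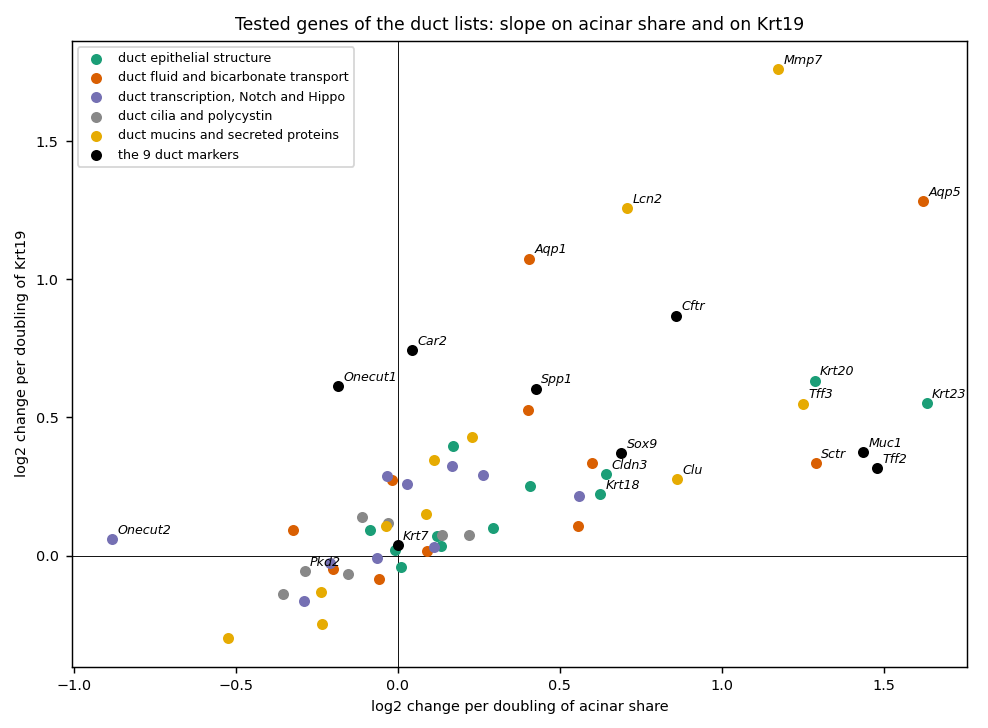
Limma slope of each tested duct-list gene on the acinar share (horizontal, log2 per doubling) against its slope on Krt19 (vertical, log2 per doubling). Genes are coloured by list, with the markers other than Krt19 in black. Krt19 has no slope on itself and is not plotted, although the legend names 9 markers. Muc1 and Tff2 lie far right at a low height, Spp1 and Cftr higher, and Krt7 at the crossing of the axes.

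Genes of other cell types moved with Krt19. On the Krt19 slope, 14 of 15 mesenchymal and stellate genes were called, beside 5.94% of all genes in either direction. For macrophage genes the count was 5 of 17, for endothelial genes 5 of 13 and for mesothelial genes 2 of 6. Of the acinar genes 0 of 37 were called, and of the endocrine genes 0 of 18. Per doubling of the summed mesenchymal and stellate level, Krt19 rose by 1.17 (SE 0.16, limma adjusted p = 3.64e-05), Spp1 by 0.78 (SE 0.10, 1.38e-05) and Cftr by 1.23 (SE 0.28, 0.00715), which were 3 of 9 beside 9.63% of all genes. Cftr was not called without wild-type library 19 (0.75, adjusted p = 0.0934). Onecut1 was at 0.77 (0.0555), Car2 at 0.93 (0.0716), Sox9 at 0.40 (0.0881), Muc1 at 0.44 (0.139), Tff2 at 0.44 (0.170) and Krt7 at 0.07 (0.579). The mesenchymal level and Krt19 had r of 0.852 and rho of 0.859 (permutation p = 2e-05 each, adjusted 1.87e-04 and 1.67e-04), and 0.816 without wild-type libraries 14 and 19. Of the 9 markers, 7 had a permutation p under 0.05 with the mesenchymal level, the exceptions being Krt7 and Tff2, and the median r was 0.541. The permutation test was not run over all genes. In the limma fit on that level, 4581 of 17467 genes had an unadjusted p under 0.05.

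With the mesenchymal level as a covariate, 0 of 8 markers and 0 of 17481 genes were called on Krt19 by limma (628 genes and 2 markers at an unadjusted p under 0.05), and 0 genes by edgeR (658 unadjusted). Because Krt19 and that level were closely correlated, slopes on Krt19 have a wide error there, and few calls can be made. The slopes on Krt19 did not go to 0 in that fit: Sox9 was at 0.44, Spp1 at 0.43, Onecut1 at 0.50 and Cftr at 0.38, against 0.37, 0.60, 0.61 and 0.87 without the covariate. With the acinar share as the covariate instead, Spp1 (0.62, limma adjusted p = 1.74e-05), Onecut1 (0.77, 0.0107), Cftr (0.84, 0.0430) and Car2 (0.87, 0.0425) were called. Over the 4 alternatives of the Krt19 fit, these 2 covariates included, 0 to 1073 of 17481 genes were called. The mesenchymal level and the acinar share had r of 0.285 and rho of 0.368 (permutation p = 0.227 and 0.111, adjusted 0.378 and 0.192). Muc1 (1.35, 5.01e-10) and Tff2 (1.39, 1.92e-07) were still called on the acinar share beside the mesenchymal level. Over the 13 alternatives of the acinar fit, that fit included, 562 to 1531 genes were called. On the mesenchymal level beside the acinar share, limma called Muc1 too (0.20, adjusted p = 0.0263), but not Tff2 (0.19, 0.184). Also called there were Krt19 (1.10, 1.04e-04), Spp1 (0.76, 4.09e-05), Cftr (1.16, 0.0163) and Onecut1 (0.87, 0.0384). Over the 3 alternatives of the mesenchymal fit, this 1 included, 1295 to 1715 of 17467 genes were called. The part of mesenchymal cells in the Krt19 relations was not tested further.

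On the endothelial level, Krt19 (3.42, limma adjusted p = 0.00425), Spp1 (2.55, 2.00e-04), Car2 (4.01, 0.0144) and Onecut1 (3.23, 0.0106) were called, beside 6.02% of genes. On the macrophage level, Krt19 (1.75, 0.0254), Cftr (2.43, 0.0149), Spp1 (1.16, 0.0236) and Tff2 (1.26, 0.0343) were called, beside 21.0%. On the mesothelial level, Krt19 (0.98, 0.0338) and Spp1 (0.61, 0.0480) were called, beside 1.50%. On the endocrine level 0 of 9 were called, beside 5.65%, with Krt7 at 0.50 (SE 0.19, adjusted p = 0.109).

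The 3 genes most alike to each marker, by Pearson's r of log2 levels over the 20 libraries, differed between the patterns. For Tff2 they were Cela3b (0.990), Casp9 (0.985) and Ctrc (0.984), and for Muc1 Gjb1 (0.975), Habp2 (0.973) and Try10 (0.970); Cela3b, Ctrc and Try10 are genes of digestive enzymes. For Krt19 they were AA986860 (0.937), Tgm2 (0.931) and Spp1 (0.926), and for Spp1 Plet1 (0.956), Prelp (0.944) and Cp (0.943). For Onecut1 they were Hmcn1 (0.935), Ablim3 (0.907) and Vangl1 (0.884), and for Sox9 Erich2 (0.904), Cgnl1 (0.882) and Fermt1 (0.864). For Car2 they were Ssu2 (0.896), Pllp (0.890) and Cldn15 (0.888), and for Cftr Gm11223 (0.886), Hand2 (0.866) and Ptgr1 (0.865). For Krt7 they were Upp2 (0.885), Cnn3 (0.856) and Arl4d (0.854). Spearman's rho was well below r for several of these pairs, down to 0.595 for Sox9 with Fermt1 and 0.615 for Cftr with Hand2.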

How the data were processed

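RNA-seq was made from 20 mouse islet libraries using TruSeq RNA v2 reagents (unstranded), per the labels' protocols. The deposited values are read counts per gene that the authors normalized, that is, a signal in which counts were divided by a size factor per library. DESeq 1.16.0, Cufflinks 1.3.0, Bowtie 0.9.9, TopHat 1.3.3, FastQC and mm9 are listed, with no role or order, per the submitters' processing notes. Which program counted reads, and its strand setting, is not given in the sources. Symbols came from GENCODE M21, on GRCm38, which named 23950 identifiers and left 2261 unnamed. Promoters came from RefSeq on GRCm38.p6. No coordinates were taken from the deposited table.

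Dividing each column by its smallest step returned whole reads for 100% of non-zero values (tolerance 0.05 reads). Depth was 34520628 to 199847246 reads over genes. Knockout columns carried the labels' replicate numbers, and wild-type columns, numbered 11 to 20, carried none, so they are named by column number.

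The test was limma 3.58.1 (R 4.3.3; lmFit, then eBayes with trend) on log2(value + 1), for genes of mean 10 or more, with Benjamini-Hochberg adjustment over all tested genes and a threshold of 0.05. Such fold changes understate the change of low genes. Slopes were fitted with genotype as a covariate, on the log2 acinar share, on the log2 summed level of other cell-type lists, or on the log2 level of a marker, leaving the listed genes out of their own fit. edgeR 4.0.16 (quasi-likelihood) and DESeq2 1.42.0 were run on recovered reads. Correlations used permutation tests with 100000 resamples in Python 3.11.15, two-sided, adjusted over 75 relations. The limma genotype fit and the limma acinar slope were checked on simulated counts, and the other tests were not.

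The markers, lists and alternatives were chosen with earlier results of these data known, and the fits on marker levels were added after the data were seen. Genes named were P2ry14, the 9 markers, up to 3 genes per duct list with the smallest p in the genotype and acinar fits, genes past the threshold, the neighbours of Muc1 and Car2, and the 3 genes most alike to each marker. Not every gene the rule allows is printed. Trim46 was added after its values were seen, as the gene on the other side of Muc1. Slc9a3 and Muc5ac were not analysed here.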

Additional observations from a re-analysis of the deposited data

Results flagged for a closer look

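Of 22 groups of 10 libraries tested for a library far from the others, 3 had one on the scale of normalized read counts. Chance flags about 1 in 20 groups of normally distributed values, and these counts are skewed. Wild-type library 20 had Krt19 at 5270 normalized read counts, with a gap to the next library of 0.660 of the range (critical value 0.466). Its mesenchymal and stellate level, 66458, was near the top of the range too. Without it, the genotype estimate of Krt19 was 0.62, against 0.29 with it. Knockout replicate 6 had Cftr at 825 (gap 0.705 of the range), and wild-type library 17 had Cftr at 453 (gap 0.579). Without knockout replicate 6 the genotype estimate of Cftr was 0.93, against 1.22 with it, and its slope on Krt19 was 0.85 (limma adjusted p = 0.0142). On the log2 scale used for the fits, none of these 3 libraries stood apart (gaps of 0.238, 0.308 and 0.141 of the range), and 2 others did, both listed at 0: wild-type library 19 for Cftr (0.560) and knockout replicate 7 for Onecut1 (0.548). The log2 comparison was added after the data were seen.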

How the results depend on the processing

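No paired analysis was possible because the wild-type columns carry no replicate number of the labels. Under the alternatives run, no marker was called by genotype. The genotype count of 49 genes was 29 with a mean of 100 or more, 163 with library weights, 137 with DESeq2, 29 without the libraries of highest and lowest Krt19 and 27 to 73 without single libraries (27 without knockout replicate 4, 32 without replicate 8 and 30 without wild-type library 19). The acinar count of 773 was 1531 with summed acinar values, 1518 with mean log2 acinar values and 445 to 970 without single libraries (445 without knockout replicate 5), with 2 to 3 markers; the Muc1 and Tff2 slopes, 1.44 and 1.48, were 0.92 and 0.99 with summed values and 0.91 and 0.98 with mean log2 values, called in both. The mesenchymal count was 1024 to 1952 (1024 without knockout replicate 10), with 2 to 5 markers; 5 markers were called with pseudocount 10, and 5 with the acinar covariate. The mesothelial count of 262 was 396 with pseudocount 10. The Krt19 count of 1038 was 590 to 1285 (590 without wild-type library 19), with 2 to 5 markers, 2 markers with quantile normalization, and 0 genes and 0 markers with the mesenchymal covariate. The interaction count was 0 without each library. The causes were not tested.

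Directions that turned were all of estimates not called. Genotype: Car2 was 0.10 with pseudocount 10, 0.52 with library weights, 0.29 with edgeR and 0.28 with DESeq2. Onecut1 was 7.4e-04, 0.34 and 0.35 with pseudocount 10, edgeR and DESeq2. Krt19 was -0.26 and -0.27 with edgeR and DESeq2. Muc1 was -0.0038 with the acinar covariate, and Muc1 -0.051 and Sox9 -0.0056 without the libraries of highest and lowest Krt19. Without single libraries, ranges were -0.086 to 0.62 for Krt19, -0.054 to 0.32 for Sox9, -0.087 to 0.32 for Muc1, -0.043 to 0.42 for Spp1, -0.53 to 0.23 for Car2, -0.51 to 0.26 for Onecut1 and -0.037 to 0.44 for Tff2. Acinar slope: Car2 was -0.035 with pseudocount 0.5, -0.032 with summed values (r -0.027), -0.024 with mean log2 values and -0.40 with the mesenchymal covariate. Krt7 was 0.019, 0.0060, 0.0047 and 0.016 with summed values, mean log2 values, no genotype term, and without the libraries of highest and lowest Krt19. Ranges were -0.11 to 0.041 for Krt7, -0.20 to 0.39 for Car2 and -0.37 to 0.21 for Onecut1. Interaction: ranges were -0.62 to 0.27 for Sox9, -1.33 to 0.034 for Onecut1 and -0.39 to 0.021 for Tff2. Krt19 slope: Krt7 was -0.020 with the mesenchymal covariate and -0.0064 to 0.093 without single libraries.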
